A study of Homo sapiens with 8 samples.

Results

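The nuclear genes for the subunits of the 5 oxidative phosphorylation complexes were examined in hESCs kept in culture for different lengths of time. The set was chosen by gene symbol alone, as protein-coding nuclear genes whose symbols begin NDUFA, NDUFB, NDUFC, NDUFS, NDUFV, UQCR, COX4 to COX8 or ATP5, together with SDHA, SDHB, SDHC and SDHD. The NDUFAF assembly factors were left out. Of the 60675 genes in the count files, 90 met this rule: 38 of complex I, 4 of complex II, 9 of complex III, 19 of complex IV, under which NDUFA4 was counted, and 20 of complex V.

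RNA was sequenced from H9 hESCs (WA09), an established human embryonic stem cell line, at 4 stages of culture with 2 libraries each. P1 hESCs were at passage 40s, P2 hESCs at passage 100s, P3 hESCs at passage 200s and P4 hESCs at passage 300s. No transgene, drug or knockdown was used in any of the 8 libraries, and per the labels all cells were grown feeder-free on Matrigel in mTeSR1 medium, whereas the reagent list of the study names iPSC-brew. P3 and P4 hESCs carry the gain of 20q11.21 described in the study. Its text states a normal copy number for P1 hESCs and gives no copy number for P2 hESCs. All 4 come from 1 donor's line, so time in culture, the 20q11.21 gain and anything else acquired by a culture cannot be told apart. Nothing in the labels says whether the 2 libraries of a line came from separate cultures, and the p-values then measure only the spread between these libraries, which may be technical. P3 and P4 hESCs are called late-passage and P1 and P2 hESCs early-passage below.

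Oxidative phosphorylation passes electrons from NADH and succinate along the inner mitochondrial membrane to oxygen, and uses the proton gradient that results to make ATP. Complex I accepts electrons from NADH and complex II from succinate, complex III passes them to cytochrome c, complex IV reduces oxygen, and complex V is the ATP synthase. Most subunits are encoded in the nucleus and imported, a small core is encoded by mitochondrial DNA, and pluripotent stem cells are known for relying heavily on glycolysis while keeping these complexes.

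The libraries held between 26874899 and 38095600 expected counts. The share of counts from the mitochondrial genome differed between libraries of the same line. It was 18.5% in P1 replicate 2, 18.4% in P3 replicate 1 and 17.2% in P4 replicate 1, and lay between 5.89% and 9.84% in the other 5 libraries. The 8 hESC markers examined were all present, at 52.3 to 2123 CPM, that is counts scaled to library size, here with the TMM method. Of 18 markers of other cell types, 16 stayed under 10 CPM in every library and 10 under 1 CPM. The others were ACTA1, at 13.2 to 52.5 CPM, and COL1A1, at 182 to 607 CPM. All 18 summed to between 304 and 670 CPM in early-passage hESCs and between 207 and 310 CPM in late-passage hESCs. Without COL1A1 they summed to between 54.7 and 68.4 CPM in early-passage hESCs and between 24.6 and 39.5 CPM in late-passage hESCs. ACTA1 and TNNT2, both of muscle, made up most of that difference, and FOXA2, of endoderm, went the other way in P3 cells, at 6.76 and 6.33 CPM against 0.135 to 0.977 CPM in the other 6 libraries. The part of these markers in the results below was not tested. In bulk RNA, fewer cells of a type and less RNA per cell cannot be told apart.

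Nearly all subunits were expressed in every library. By TPM, which corrects for gene length, the highest mean levels over the 8 libraries were those of COX7C (1169 TPM), ATP5MF (1099 TPM) and UQCRH (800 TPM), small subunits of complexes IV, V and III. The median level of the tested members was 112 TPM in complex I, 70.8 TPM in complex II, 143 TPM in complex III, 254 TPM in complex IV and 270 TPM in complex V. Of the 90 members, 85 passed the filter on low counts. The 5 that did not were COX4I2, COX6A2, COX7B2 and COX8C of complex IV and ATP5MGL of complex V.

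For the members that differed most clearly, the sequence around known promoter motifs of this gene class is shown. The start-site windows come from RefSeq (GRCh38.p14) and span 250 bases before to 50 bases after each annotated start. A window was found for 71 of the 90 members. The consensus motif of NRF1, read on both strands, lay in 17 of these 71 windows (23.9%) and in 6.28% of all 27305 windows. The ETS motif CCGGAAG lay in 20 member windows (28.2%) and in 10.7% of all windows, and the YY1 motif AAGATGGC in 11 (15.5%) and in 3.03%. NRF1, ETS-family factors such as GABPA, and YY1 are transcription factors known from promoters of mitochondrial genes. Of the 4 members that were higher in late-passage hESCs, NDUFA9, NDUFS4 and SDHB held at least 1 of these motifs. The window of NDUFB11 held none of the 3, which says only that these letters were not in it. The matches are shown in capitals within 30 bases, 5′ to 3′ on the strand of the gene.
NDUFA9, NRF1 motif on the opposite strand: ttcttggttaGCGCTTGCGCagacaggcga
NDUFA9, YY1 motif: attgtgggaaAAGATGGCggctgccgcaca
NDUFS4, YY1 motif: tgcctgcagcAAGATGGCggcggtgtcaat
SDHB, YY1 motif: gtcaggagccAAGATGGCggcggtggtcgc
SDHB, ETS motif: acccgggaaaCCGGAAGccgcctcccactt

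Counted from the annotated start, the NRF1 match of NDUFA9 began at base -80 (chr12:4649024-4649053 for the printed stretch, plus strand) and the ETS match of SDHB at base -128 (chr1:17054141-17054170, minus strand). The YY1 matches lay after the start, at base 11 in NDUFA9 (chr12:4649114-4649143) and in SDHB (chr1:17054003-17054032), and at base 22 in NDUFS4 (chr5:53560650-53560679, plus strand). None of the 3 motifs overlaps another in these windows, and no binding was measured in these samples.

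The first comparison set the 4 late-passage libraries (P3 and P4) against the 4 early-passage libraries (P1 and P2). Most subunit genes were slightly higher in late-passage hESCs, but few passed the test. Of the 85 tested members, 4 were higher at an adjusted p under 0.05 (edgeR's quasi-likelihood F test, adjusted by Benjamini and Hochberg's method across the 19499 genes tested) and none was lower. Among all tested genes, 3.5% were called higher, 4.04% lower and 7.54% either way. The 4 members are 4.71% of those tested, near the share called higher among all genes and below the share called either way. The 4 were NDUFB11, NDUFA9 and NDUFS4 of complex I and SDHB of complex II. A positive log2 fold change was found for 75 of 85 members (88.2%), against 50.5% of all tested genes, and the median log2 fold change was 0.24 for members and 0.01 for all tested genes. The share of members above 0 was lower on the TPM scales, at 71.8% by log2(TPM + 1) and 70.6% by log2(TPM + 0.1), where it was 37.1% and 36.5% of all tested genes. Without the 3 libraries with a high mitochondrial share it was 69.4%, against 51.2% of all tested genes. At an unadjusted p under 0.05, 25 members were higher (12.5% of all tested genes were) and 27 differed either way (25.5% of all).

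**Figure D1:**
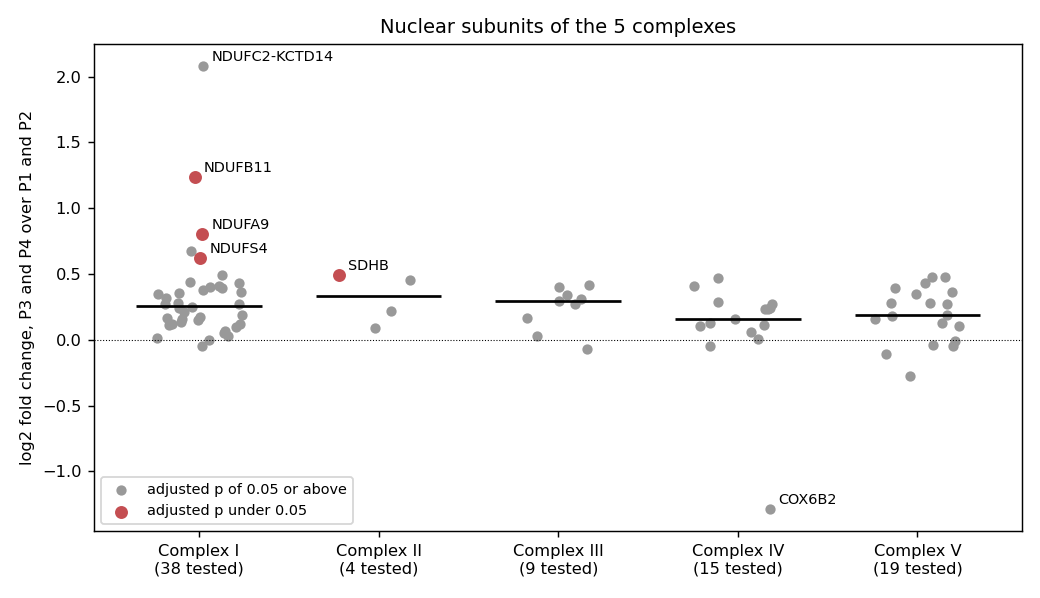
Each point is 1 tested member, with its log2 fold change between late-passage hESCs and early-passage hESCs on the vertical axis, grouped by complex. Horizontal lines mark the medians (0.26, 0.34, 0.29, 0.15 and 0.19 for complexes I to V), and red points are the 4 members with an adjusted p under 0.05.

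NDUFB11, an accessory subunit of the membrane arm of complex I, changed most among the 4. Its level was 63.6 and 60.1 CPM in P1 cells, 56.3 and 73.2 CPM in P2 cells, 184 and 120 CPM in P3 cells, and 160 and 132 CPM in P4 cells. Every library of late-passage hESCs lay above every library of early-passage hESCs. The log2 fold change was 1.23 (SE 0.16, adjusted p = 0.00127 by edgeR), and NDUFB11 was the only member past an absolute log2 fold change of 1 at an adjusted p under 0.01, thresholds that 2.2% of all tested genes passed.

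NDUFA9, an accessory subunit at the junction of the matrix and membrane arms of complex I, stood at 38.5, 41.4, 34.3 and 34.3 CPM in the 4 libraries of early-passage hESCs. It was at 90.3 and 60.8 CPM in P3 cells and at 58.2 and 49.6 CPM in P4 cells. The groups did not overlap, and the highest value came from P3 replicate 1. The log2 fold change was 0.80 (SE 0.18, adjusted p = 0.0249 by edgeR). Exons of NDUFA9 overlap those of 2 other genes on the same strand in GENCODE 29, so part of its counts could belong to them. The same limit holds for 27 of the 90 members, among them COX6B2, COX6A1, ATP5MC2 and ATP5MC3.

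NDUFS4, a matrix-arm accessory subunit whose loss is a known cause of complex I deficiency, ranged from 32.4 to 40.0 CPM in early-passage hESCs. Its values were 66.4 and 48.9 CPM in P3 cells and 51.9 and 50.2 CPM in P4 cells, again without overlap. The log2 fold change was 0.62 (SE 0.14, adjusted p = 0.0267 by edgeR).

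SDHB, the iron-sulphur subunit of complex II, stood at 41.8, 34.4, 42.2 and 46.0 CPM in the libraries of early-passage hESCs, at 56.4 and 55.2 CPM in P3 cells and at 57.3 and 62.4 CPM in P4 cells. By CPM its lowest value in late-passage hESCs was above its highest in early-passage hESCs, and its highest library was in P4 cells rather than P3 cells. By TPM the groups overlapped, with 59.2 TPM in P3 replicate 1 and 65.5 TPM in P2 replicate 2. SDHB was not called on either TPM scale. The log2 fold change was 0.49 (SE 0.13, adjusted p = 0.0435 by edgeR).

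**Figure D2:**
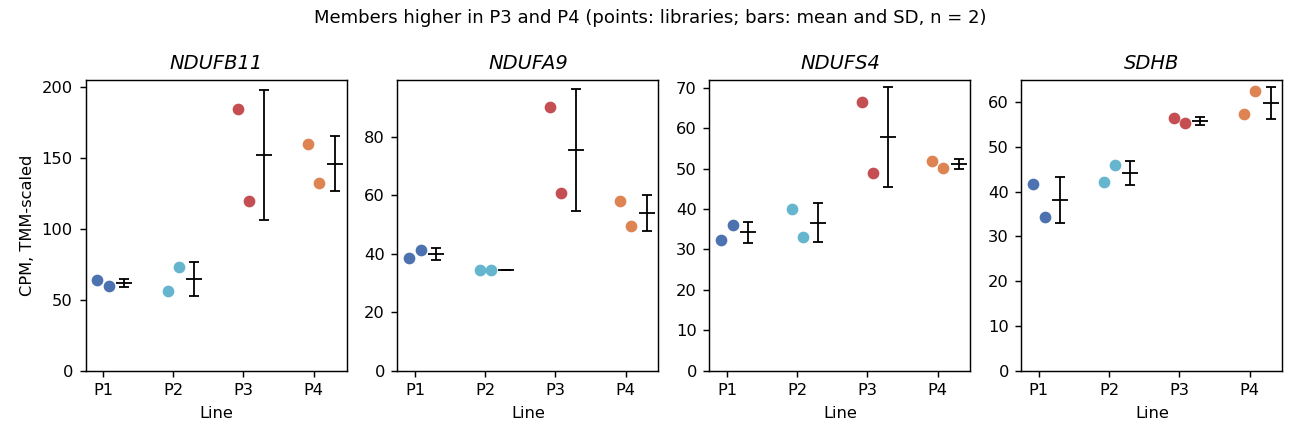
TMM-scaled CPM (vertical axes, from 0) of NDUFB11, NDUFA9, NDUFS4 and SDHB in P1 to P4 cells (horizontal axes), with 1 point per library and the mean and SD of the 2 libraries beside them. In each panel the 4 points of late-passage hESCs lie above the 4 of early-passage hESCs.

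The call of NDUFB11 did not rest on 1 library. It was called higher in all 8 fits that left out 1 library, whereas NDUFA9 was called in 5 of them, NDUFS4 in 2 and SDHB in none. The number of members called was 1 without P1 replicate 1, P2 replicate 1 or P2 replicate 2, 2 without P1 replicate 2, P3 replicate 1 or P4 replicate 1, 3 without P3 replicate 2, and 10 without P4 replicate 2. P3 replicate 1, which is also 1 of the 3 libraries with a high mitochondrial share, had the highest CPM of the 8 libraries for 54 of the 85 members (63.5%), against 18.4% of all tested genes. The median log2 fold change of the members fell from 0.24 to 0.15 without it. Without all 3 libraries over 15% mitochondrial counts, a setting chosen after seeing the data that leaves 3 libraries against 2, the median was 0.10, NDUFB11 remained called, and the log2 fold changes of NDUFA9, NDUFS4 and SDHB were 0.62, 0.49 and 0.43 with adjusted p-values of 0.121, 0.185 and 0.186 by edgeR. With all 8 libraries and the mitochondrial share as a covariate, the same 4 members were called.

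**Figure D3:**
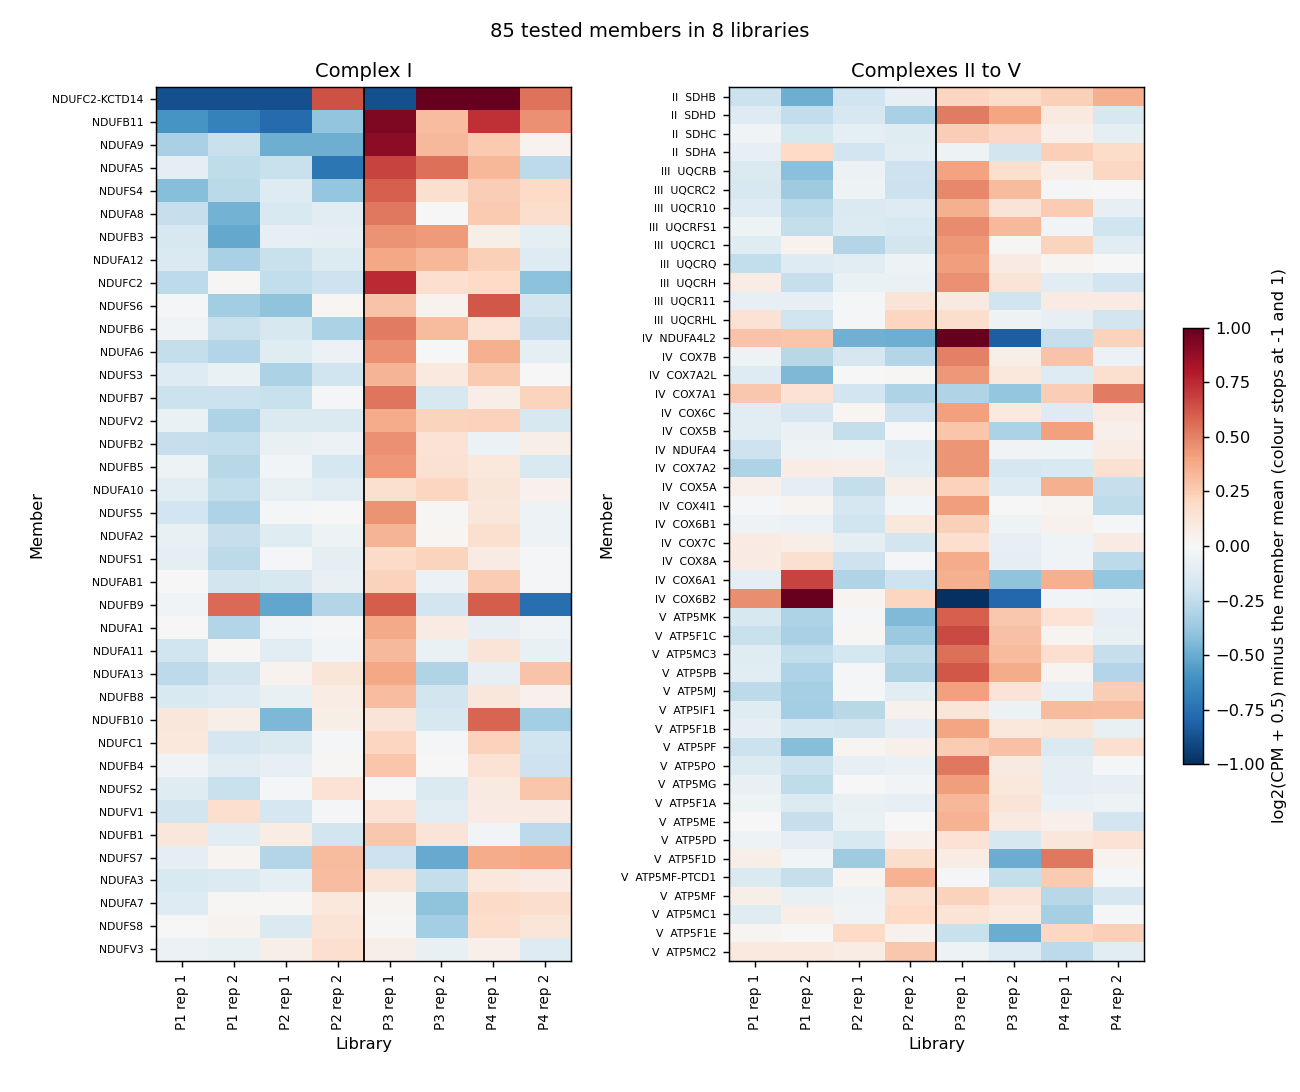
Colour shows log2(CPM + 0.5) of each of the 85 tested members (rows, by complex and ordered by fold change) minus its mean over the 8 libraries (columns), with a line between P2 and P3. P3 replicate 1 is red for most members, and COX6A1 and NDUFB9 are red in P1 replicate 2, P3 replicate 1 and P4 replicate 1.

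Of the 38 members of complex I, 36 had a positive log2 fold change, 3 were called and the median was 0.26. NDUFS1 and NDUFV1, the iron-sulphur and NADH-binding core subunits, had log2 fold changes of 0.24 (SE 0.12, adjusted p = 0.246) and 0.09 (SE 0.13, adjusted p = 0.694) by edgeR, neither of which passed. The lowest was NDUFV3, an accessory subunit of the NADH-binding module, at -0.05 (SE 0.13, adjusted p = 0.846 by edgeR). The highest was the read-through locus NDUFC2-KCTD14, at 2.08 with an SE of 1.3 and an adjusted p of 0.341 by edgeR. Its CPM was 0 in both libraries of P1 cells, in P2 replicate 1 and in P3 replicate 1 and 0.841 to 1.58 in the other 4, and its reads are shared with NDUFC2.

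In complex II, SDHA, the flavoprotein that oxidises succinate, was not called. Its CPM ran from 77.1 to 102 in early-passage hESCs and from 77.6 to 104 in late-passage hESCs, with a log2 fold change of 0.09 (SE 0.15, adjusted p = 0.729 by edgeR). SDHA has pseudogene copies that took 13.2% of the counts of the gene and its copies together, so its value is less certain, whereas pseudogenes of all members together took 0.177%. In complex III, 8 of 9 members had a positive log2 fold change and none was called. UQCRB, which binds ubiquinone, came nearest, with 166 to 213 CPM in early-passage hESCs and 232 to 293 CPM in late-passage hESCs, a log2 fold change of 0.42 (SE 0.13) and an adjusted p of 0.0829 by edgeR. UQCRFS1, the Rieske iron-sulphur protein, and the core protein UQCRC1 had log2 fold changes of 0.31 (SE 0.16) and 0.29 (SE 0.15), and UQCRHL, a close copy of UQCRH, of -0.07 (SE 0.15).

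Complex IV had the smallest median log2 fold change, 0.15, and no called member. COX5A, a subunit on the matrix side, and COX4I1, the regulatory subunit that binds ATP, had log2 fold changes of 0.13 (SE 0.16) and 0.11 (SE 0.15). In complex V, 14 of 19 tested members had a positive log2 fold change. The catalytic core subunits ATP5F1A and ATP5F1B had values of 0.18 (SE 0.13) and 0.28 (SE 0.14), the central stalk subunit ATP5F1C 0.47 (SE 0.18) and the small membrane subunit ATP5MK 0.48 (SE 0.17), none of them called. Over all complexes, the libraries of the 2 groups did not overlap by CPM for 18 members, 16 higher and 2 lower in late-passage hESCs. Among all tested genes, 8.38% did not overlap upwards and 9.19% downwards. By TPM, the groups overlapped for SDHB, UQCRB and COX6B2 but not for NDUFB11, NDUFA9 and NDUFS4, and the other members were not counted on that scale. A split without overlap gives an exact two-sided permutation p of 0.0286, the smallest that 4 against 4 libraries allow. This permutation treats the 4 libraries of a group as separate units. They come from P1 and P2 cells or from P3 and P4 cells, with 2 libraries per line.

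The 2 members whose libraries did not overlap downwards by CPM both belong to families with several isoforms. COX6B2, the testis-type isoform of the complex IV subunit 6B, was at 7.82 and 17.9 CPM in P1 cells, 5.65 and 6.50 CPM in P2 cells, 1.71 and 3.01 CPM in P3 cells and 5.42 and 5.38 CPM in P4 cells. Its lowest values were in P3 cells, and P4 cells lay just under P2 cells. By TPM the groups overlapped, with 6.25 and 8.09 TPM in P2 cells and 7.77 and 11.0 TPM in P4 cells. P3 cells were again lowest, at 1.18 and 3.85 TPM. The log2 fold change of -1.29 (SE 0.44, adjusted p = 0.0953 by edgeR) did not pass, but with a separate mean for each of the 4 lines it was -1.3 at an adjusted p of 0.00852. The common isoform COX6B1 was at 117 to 159 CPM over the 8 libraries, with a log2 fold change of 0.11 (SE 0.13).

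ATP5MC1, ATP5MC2 and ATP5MC3 encode the same mature c subunit, the ring that turns in the ATP synthase, with different import sequences. ATP5MC2 was at 179, 179, 176 and 202 CPM in the libraries of early-passage hESCs, at 162 and 153 CPM in P3 cells and at 139 and 156 CPM in P4 cells. Its log2 fold change of -0.27 (SE 0.12, adjusted p = 0.186 by edgeR) did not pass. ATP5MC3 was at 169 to 186 CPM in early-passage hESCs, at 297 and 252 CPM in P3 cells and at 228 and 173 CPM in P4 cells, a log2 fold change of 0.43 (SE 0.16, adjusted p = 0.131 by edgeR). ATP5MC1 had a log2 fold change of -0.05 (SE 0.14). The ratio of ATP5MC3 to ATP5MC2 by TPM was 0.662 and 0.622 in P1 cells, 0.627 and 0.545 in P2 cells, 1.12 and 1.00 in P3 cells, and 1.02 and 0.666 in P4 cells. P4 replicate 2 lay next to the P1 libraries on this ratio, which was chosen after its values were seen and was not tested.

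The other isoform families showed which copies these cells used. COX4I1, COX6A1, COX7A2, COX7A2L, COX7B, COX8A and NDUFA4 were all expressed, with mean levels between 96.9 and 700 TPM over the 8 libraries. Their tissue-restricted counterparts COX4I2, COX6A2, COX7A1, COX7B2 and COX8C, of lung, striated muscle or testis, each had a mean under 1 TPM. COX4I2 lies in 20q11.21, where 13 of its 16 tested neighbours within 500 kb were higher in late-passage hESCs (median log2 fold change 1.53). COX4I2 itself was counted with at most 14 reads, in P3 replicate 1, and was not tested. NDUFA4L2, a paralogue of NDUFA4 known as a hypoxia target, was at 0.586 to 4.01 CPM, its highest and lowest libraries both being P3 cells.

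The summed level of each complex depended on the scale. Summed over the 38 members of complex I, CPM was 2370 and 2349 in P1 cells, 2351 and 2505 in P2 cells, 3408 and 2656 in P3 cells and 3018 and 2603 in P4 cells. All 4 libraries of late-passage hESCs were above those of early-passage hESCs, and P3 replicate 1 was the highest. The mean log2 ratio of P3 and P4 over early-passage hESCs was 0.28 for complex I, 0.27 for complex III and 0.12 for complex IV by CPM. By TPM, in which the mitochondrial transcripts take up a larger share in the 3 libraries named above, it was 0.14 for complex I and 0.00 for complex IV. The most abundant members weigh most in these sums. By CPM these included the catalytic subunits ATP5F1A (658 to 911 CPM) and ATP5F1B (722 to 1078 CPM) in complex V. No test was made on these sums.

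**Figure D4:**
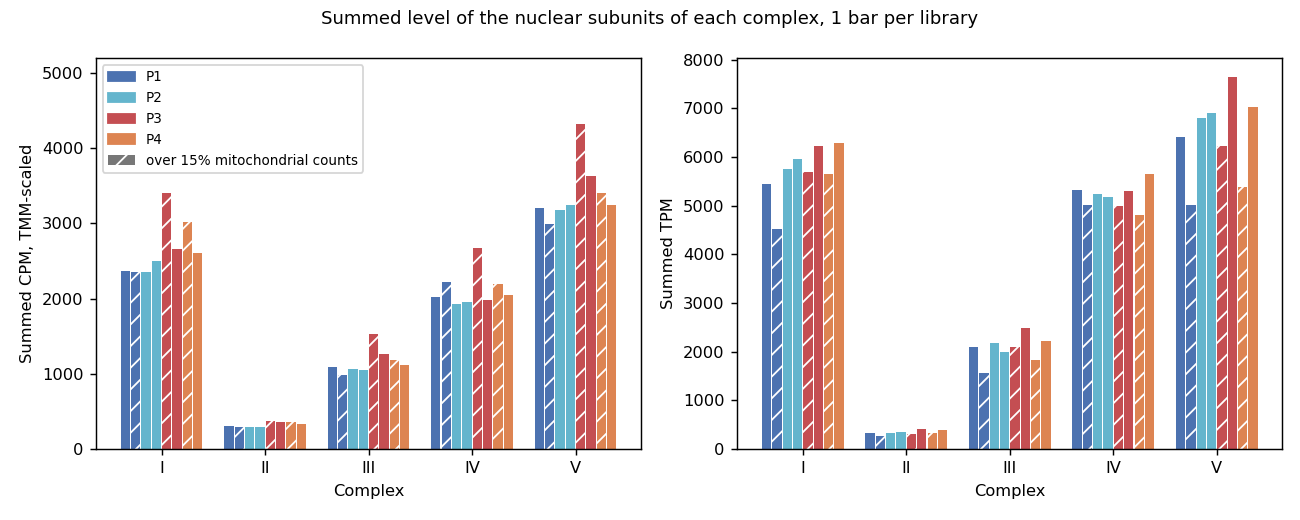
Bars give the summed level of the nuclear subunits of each complex (horizontal axis) in each library, as TMM-scaled CPM on the left and as TPM on the right, both from 0. Hatched bars are the 3 libraries with over 15% mitochondrial counts, which are lower by TPM than the other library of their line in every complex.

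Compared with P1 cells, each later line was then taken alone, in a model with a mean for each line. The 3 comparisons share the P1 libraries as their control. In P2 cells no member was called by edgeR or by DESeq2, where 0.00513% and 0.503% of all genes were called, and 3 members had an unadjusted p under 0.05 (9.14% of all tested genes). The median log2 fold change was 0.05.

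In P3 cells 11 members were called, 9 higher and 2 lower, where 12.5% of all tested genes were called, 4.49% higher and 8.0% lower. The median log2 fold change was 0.34. NDUFB11 was 1.3 log2 units higher (SE 0.24, adjusted p = 0.00495), NDUFA9 0.92 (SE 0.22, adjusted p = 0.0181), NDUFB3 0.77 (SE 0.20, adjusted p = 0.0269) and ATP5F1C 0.76 (SE 0.21, adjusted p = 0.0327), all by edgeR. NDUFB3, another accessory subunit of the complex I membrane arm, was at 30.7 and 24.0 CPM in P1 cells and at 47.1 and 46.5 CPM in P3 cells, so its P3 libraries were alike. The other 5 called higher, named after their values were seen, were NDUFA5 and NDUFS4 of complex I, SDHD of complex II, UQCRC2 of complex III and ATP5PB of complex V, with log2 fold changes of 0.65 to 0.79 and adjusted p-values of 0.0363 to 0.0478 by edgeR.

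The 2 called lower in P3 cells were isoforms of complex IV. COX6B2 had a log2 fold change of -2.44 (SE 0.41, adjusted p = 0.00292 by edgeR). COX7A1, the muscle-type isoform of subunit 7A, had 10 and 7 counts in P1 cells against 1 and 0 in P3 cells, a ratio of 0.0581 with an exact 95% interval of 0.00139 to 0.371 that covers counting error only. COX6B2 and NDUFB11 were the only members past the stricter thresholds in P3 cells, which 3.93% of all tested genes passed. The count of 11 fell to 3 without P1 replicate 1, P2 replicate 1, P2 replicate 2 or P3 replicate 1 and to 1 without P1 replicate 2. COX6B2 was called in all 8 fits that left out 1 library, NDUFB11 in 7 and COX7A1 in none. COX7A1 was also not called with the replicate block, or on log2(TPM + 1), did not pass the filter on low counts with only the 2 lines, and was given no adjusted p by DESeq2. With all 8 libraries it stayed called with RLE size factors, on log2(TPM + 0.1) and with the mitochondrial share as a covariate. It also stayed called without the filter and without the mitochondrially encoded genes.

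In P4 cells NDUFB11 alone was called, 1.24 log2 units above P1 cells (SE 0.24, adjusted p = 0.00929 by edgeR), where 5.94% of all tested genes were called, 2.54% higher. It also passed the stricter thresholds, as 2.11% of all tested genes did. Without P1 replicate 1 or P1 replicate 2 it was not called, and its adjusted p over the alternatives reached 0.118. The median log2 fold change of the members was 0.20. Set directly against P3 cells, no member of P4 cells was called by edgeR, where 3.31% of all tested genes were called and 0.815% passed the stricter thresholds. By DESeq2 2 were called, COX6B2 and NDUFS7, where 7.1% of all genes were, and 17 members had an unadjusted p under 0.05 by edgeR (19.2% of all tested genes). The median log2 fold change between P4 and P3 was -0.17, and it was 0.02 without P3 replicate 1.

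NDUFB11 lies on the X chromosome (GRCh38, chrX:47142216-47145504, minus strand), where several of its neighbours were also higher. Within 500 kb, 10 of 18 tested genes were called higher in late-passage hESCs and none was lower, with a median log2 fold change of 0.78. They included RP2 (1.32), JADE3 (0.85), ARAF (1.05), TIMP1 (1.64), CFP (2.48) and ELK1 (1.06), on both sides of it. Nearer by, UBA1 (-0.12) and CDK16 (0.01) did not pass the test. RBM10 (0.71, SE 0.12, adjusted p = 0.00665 by edgeR) overlaps exons of NDUFB11 on the other strand, and whether the counting used the strand is not given in the sources used here. Of 699 tested genes of the X chromosome, 17.3% were called higher, with a median of 0.21, against 3.5% of all tested genes. The 2 other X-linked members, NDUFA1, an accessory subunit of complex I, and COX7B of complex IV, had log2 fold changes of 0.18 (SE 0.14) and 0.41 (SE 0.15) and were not called. Around NDUFA9 and NDUFS4 no neighbour within 500 kb was called, among 12 and 6 tested, and around SDHB 2 of 23 were lower and none higher.

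**Figure D5:**
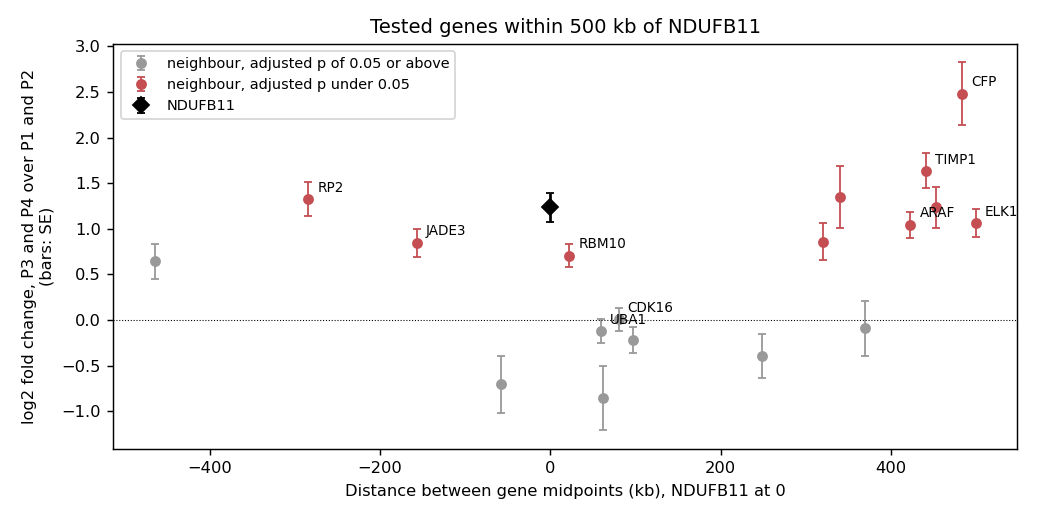
Log2 fold change with its SE (vertical axis) of the 18 tested genes within 500 kb of NDUFB11 against the distance between gene midpoints in kb (horizontal axis). The 10 red points, called higher, lie on both sides of NDUFB11 (black diamond), and the genes just beyond RBM10 lie near or below 0.

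Some members were highest in the 3 libraries with a high mitochondrial share, which come from 3 different lines. COX6A1, the common isoform of the complex IV subunit 6A, was at 351 CPM in P1 replicate 2, 281 CPM in P3 replicate 1 and 280 CPM in P4 replicate 1, and at 166 to 204 CPM in the other 5 libraries. NDUFB9, an accessory subunit of the complex I membrane arm named after its values were seen, was at 149, 153 and 153 CPM in the same 3 libraries and at 59.2 to 97.6 CPM in the others. Neither differed between late-passage hESCs and early-passage hESCs beyond this spread, with log2 fold changes of -0.04 (SE 0.26) and 0.19 (SE 0.31). In all, 5 of 85 members were higher in these 3 libraries than in every other, and none was lower in all 3. Of the 19481 tested genes outside the mitochondrial genome, 2.42% were higher and 2.63% lower in this way. The other members higher in these libraries were COX4I1, NDUFA11 and UQCRC1. The part of the mitochondrial share in these values was not tested.

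The partners of the nuclear subunits gave the following values in late-passage hESCs against early-passage hESCs. None of the 13 subunits encoded by mitochondrial DNA was called by edgeR, by DESeq2 or at an unadjusted p under 0.05, and their median log2 fold change of 0.29 had a median SE of 0.50. Of 63 assembly factors, which build the complexes without staying in them, none was called by edgeR, 8 were by DESeq2, which called 13.9% of all genes, and 16 (25.4%) had an unadjusted p under 0.05, near the 25.5% of all tested genes. Of these 16, 15 were higher, where 12.5% of all tested genes were higher at that p. A positive log2 fold change was found for 53 of the 63 assembly factors (84.1%), against 50.5% of all tested genes, and their median was 0.23. Of 14 genes for electron carriers and electron entry, ETFB, a subunit of the flavoprotein that carries electrons from fatty acid oxidation, was the 1 called higher (7.14%, against 3.5% of all tested genes). It stood at 23.2 to 25.7 CPM in early-passage hESCs, at 51.0 and 38.7 CPM in P3 cells and at 39.2 and 30.2 CPM in P4 cells (log2 fold change 0.70, SE 0.16, adjusted p = 0.0277 by edgeR). It was called in 1 of the 8 fits that left out 1 library, that without P4 replicate 2. CYC1, the cytochrome subunit of complex III that the symbol rule leaves out, had a log2 fold change of 0.28 (SE 0.16, adjusted p = 0.287 by edgeR).

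Of 25 regulators, CHCHD2 was the 1 called, and it was lower (4.0%, against 4.04% of all tested genes). This gene encodes a small mitochondrial protein that binds complex IV and also acts in the nucleus on the promoter of COX4I2. It stood at 127 to 154 CPM in early-passage hESCs and at 0.101 to 0.335 CPM, or 3 to 12 counts, in late-passage hESCs (log2 fold change -9.52, SE 0.27, adjusted p = 1.33e-08 by edgeR). The transcription factors read at the motifs above were not called. NRF1 had a log2 fold change of 0.28 (SE 0.13), YY1 of 0.18 (SE 0.12) and TFAM, the mitochondrial DNA packaging factor, of 0.39 (SE 0.24), and these 3 were named after their values were seen.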

How the data were processed

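Total RNA of 8 libraries (4 lines, 2 each) had been made into strand-specific TruSeq mRNA libraries. The authors deposited 2 values per gene and library, an RSEM expected count without normalization and a TPM scaled for effective length and depth. The submitters' processing notes name FastQC, Trim Galore, STAR 2.7.3a, RSEM 1.3.3 and GRCh38/hg38; the annotation release and the strand setting of the counting are not given in the sources used here. Libraries were not pooled.

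Expected counts were rounded and tested in R 4.3.3 with edgeR 4.0.16 (TMM scaling, filterByExpr grouped by line, glmQLFit and glmQLFTest), which kept 19499 of 60675 genes. Late-passage (P3, P4) and early-passage (P1, P2) libraries formed 2 groups of 4, and single lines were compared in a 4-group model. Adjusted p-values cover all tested genes, and a call needs a value under 0.05. Groups follow the sample titles. Symbols came from a gene name table, and types and positions from GENCODE 29. A floor of 3 counts was 0.0730 to 0.103 CPM. Alternatives used DESeq2 1.42.0, limma 3.58.1 on log2(TPM + 1) and log2(TPM + 0.1), other scaling, no filter, other designs and left-out libraries. Scripts were tested on simulated data. Libraries of one line differed beyond sampling noise, so all 8 were used.

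Replicate numbers recur in every line. Replicate differences of the lines correlated between -0.09 and 0.138 over genes, so the numbers were not taken as pairs.

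The members, lists and tests were chosen with earlier results of these data known. The genes named are the called members, the highest and lowest fold change of each complex, the isoform families, 9 core subunits, the 5 members with the smallest p among those called in each line comparison, the called partner genes, CHCHD2 and CYC1. Others are said to be named after their values were seen.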

Additional observations from a re-analysis of the deposited data

Results flagged for a closer look

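In 72 groups of 4 libraries checked for a library far from the other 3, of which chance alone would give about 3.6, 2 were found, both involving P2 replicate 2. ATP5MC2 was at 202 CPM there and at 176 to 179 CPM in the other 3 libraries of P1 and P2 hESCs, with a gap of 0.867 of the whole range. The read-through locus NDUFC2-KCTD14 was at 0.925 CPM there and at 0 in the other 3, a gap of 1.0 of the range. The 0.925 CPM came from 32.7 expected counts, against a floor of 3 counts, and reads of this locus are shared with NDUFC2.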

How the results depend on the processing

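NDUFB11 was called higher in late-passage hESCs under all 18 alternatives, with log2 fold changes of 0.96 to 1.33 and adjusted p-values of 4.23e-10 to 0.0381. NDUFA9 was called in 14 of them (adjusted p 0.00156 to 0.121), NDUFS4 in 9 (0.00150 to 0.185) and SDHB in 5 (0.00525 to 0.351). The causes of the changes below were not tested. Most counts below come without the share of all genes called under the same setting, so they show only how the calls moved.

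The 4 members called in late-passage against early-passage hESCs became 8 with a mean for each line, 1 of them lower. With DESeq2 they became 9, 1 of them lower, where 13.9% of all genes were called. The lower member was COX6B2 in both cases. The count was 2 with limma on either TPM scale and 1 at an adjusted p under 0.01. Without the 3 libraries over 15% mitochondrial counts it was 1. For the stricter thresholds, the count of 1 became 2 with a mean for each line and 0 without those 3 libraries, and the median of 0.24 became 0.10 without them. Without 1 library at a time the counts ran from 1 to 10, the stricter count stayed at 1 and the median ran from 0.15 to 0.28. On the TPM scales the median log2 fold change of all genes was -0.09 (TPM + 1) and -0.14 (TPM + 0.1), and the members' median was 0.21 and 0.26 above it.

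In P2 against P1 hESCs, 1 member was called without the filter (1 also by the stricter thresholds). The members' median was 0.25 on both TPM scales, where that of all tested genes was 0.13 (TPM + 1) and 0.19 (TPM + 0.1). Without 1 library the members' median ran from 0.0055 to 0.12 and the counts stayed at 0. In P3 against P1 hESCs, 20 were called with DESeq2, 1 of them lower. The share of all genes that DESeq2 called there is not given here. The count was 3 on log2(TPM + 0.1) and 2 on log2(TPM + 1). With only the 2 lines it was 4, and at an adjusted p under 0.01 it was 2. The stricter count was 0 on both TPM scales. Without 1 library, calls ran from 1 to 11, stricter calls from 0 to 3 and the median from 0.20 to 0.48. In P4 against P1 hESCs, 3 were called with DESeq2 and without the filter, 1 of them lower in each case. With only the 2 lines 2 were called. The stricter counts were 3 without the filter, 2 with only the 2 lines, and 0 on both TPM scales and with the replicate block. Without 1 library, calls ran from 0 to 2, stricter calls from 0 to 1 and the median from 0.10 to 0.25. In P4 against P3 hESCs, DESeq2 called 2, no filter 3, and RLE size factors, log2(TPM + 0.1) and leaving out the mitochondrially encoded genes 1 each. Without 1 library the calls stayed at 0 and the median ran from -0.32 to 0.017.

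Assembly factors called numbered 6 with a mean for each line, 8 with DESeq2, 1 with RLE size factors, 2 with the mitochondrial share as a covariate, and 0 to 5 without 1 library. Electron carriers called numbered 2 with DESeq2, 0 on both TPM scales and without the 3 libraries, and 0 to 1 without 1 library; regulators 1 to 2 without 1 library. By CPM the log2 ratio of summed levels was 0.28 in complex I and 0.12 in complex IV.

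With the replicate number as a block, 3 members were called in late-passage against early-passage hESCs and 11 in P3 against P1 hESCs, and the numbers do not pair the libraries (correlations of -0.09 to 0.138).

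Uncalled log2 fold changes that turned sign were those of COX5A (-0.022 on both TPM scales, -0.15 without the 3 libraries), COX6B1 (-0.00866 and -0.00864), COX7A1 (-0.55 with a mean for each line, -0.16 on log2(TPM + 0.1)), COX8A (-0.11 on both TPM scales, -0.058 with the mitochondrial share, -0.14 without the 3 libraries, and -0.00488 with the block), NDUFV1 (-0.087 and -0.086), SDHA (-0.042 and -0.0404), and without the 3 libraries ATP5MC1 (0.021), COX4I1 (-0.060) and NDUFA4L2 (-0.051). Without 1 library, ATP5MC1 ran from -0.10 to 0.048, COX4I1 from -0.024 to 0.21, COX6A1 from -0.17 to 0.23, COX7A1 from -0.60 to 0.76, COX8A from -0.14 to 0.088, NDUFA4L2 from -0.23 to 0.77 and NDUFV3 from -0.085 to 0.0030. At this depth a fall of a member near the floor of 3 counts could not be detected.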
